A study of Homo sapiens with 20 samples.

Results

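The difference between GCN2KO and WT keratinocytes 6 h after high density wounding (HDW) was examined across all genes. GCN2KO HDW (n = 5) and WT HDW (n = 5) made up 10 of the 20 samples of the study, and 15855 of 57500 listed genes passed a filter on low counts. The cells were NTERT, an immortalized line of human epidermal keratinocytes. GCN2KO cells were a pool edited at EIF2AK4 with CRISPR-Cas9, used at early passage and not a single clone. WT NTERT cells in the study carried a control guide in place of one against EIF2AK4. Both genotypes were grown as sheets, and HDW was made by drawing a row of pipet tips across and then down each sheet, so that wound edges lie close together throughout the culture. The other 10 samples, the same genotypes left unwounded (n = 5 each), are used below only where the difference after HDW is set beside the difference without it. The study's methods describe replicates as biological, and the labels do not say whether they were separate cultures, so p-values measure the spread between these samples.

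GCN2 is a protein kinase that senses uncharged tRNA and stalled ribosomes. It phosphorylates the translation initiation factor eIF2, which lowers general protein synthesis and favours translation of ATF4, the transcription factor of the integrated stress response. ATF4 and its partner CHOP drive genes for amino acid synthesis, uptake and tRNA charging. The related kinase PERK responds to unfolded protein in the endoplasmic reticulum (ER) and acts on the same site of eIF2. At a wound edge keratinocytes loosen their attachment to the basement membrane, rebuild the actin skeleton, release metalloproteinases and switch on keratins of the activated state.

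WT HDW libraries held 29320528 to 34611570 counts and GCN2KO HDW libraries 17042848 to 34343328. The 10 genes with the most counts took 6.82% to 7.04% of a WT HDW library and 7.87% to 8.48% of a GCN2KO HDW library. No library was a copy of another, but GCN2KO HDW replicate 5 stood apart from the other 4 of its group, with a chi-square of 17.6 to 45.3 per gene against 2.62 to 7.59 among those 4. WT HDW replicate 2 stood apart less, at 6.32 to 23.9. All 18 keratinocyte markers were above 100 normalized counts in every library. Of the markers of other cell types, 5 of 9 for fibroblasts, 4 of 7 for melanocytes, 3 of 6 for endothelium and 3 of 8 for leukocytes stayed under 10. Among these were the collagen chains COL1A2 and COL3A1, THY1, TYR, SOX10, PECAM1, PTPRC, CD3E and LYZ, and the remaining markers reached 10 or more in some library. Summed over 7 melanocyte markers the level was 176 to 209 in WT HDW and 389.7 to 644 in GCN2KO HDW, carried by MITF (1.94 on the log2 scale), and for 9 fibroblast markers it was 786 to 878 and 761 to 991. For 8 leukocyte markers, 1 of which was above 100 in every library, it was 917 to 1087 and 537 to 1111, and of the 5 tested CD79A was higher (1.19). Of 3 tested fibroblast markers 1 was higher (1.04). The 6 endothelial markers summed to 42.2 to 72.7 in WT HDW and 34.2 to 75.7 in GCN2KO HDW.

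EIF2AK4, which encodes GCN2 (ENSG00000128829, chr15:39934115-40035591, plus strand of GRCh38), was the check on the labels. Its normalized counts, scaled to a common library size, were 4303, 4222, 4182, 4283 and 3980.5 in WT HDW replicates 1 to 5 and 935, 809.7, 858, 951 and 814 in GCN2KO HDW. Values after ± beside log2 fold changes are SE. The edited pool kept transcript at a level 4.81-fold lower, with no overlap between groups (log2 fold change -2.27 ± 0.05, SE; edgeR adjusted p = 3.26e-12). Of 18 eIF2 kinases, phosphatases and cofactors EIF2AK4 was the only one called after HDW, and the median was 0.11. Among the other eIF2 kinases, PERK (EIF2AK3) was 0.45 on the log2 scale, HRI (EIF2AK1) 0.07 and PKR (EIF2AK2) -0.18, none past the fold threshold. IMPACT, an inhibitor of GCN2, was at -0.89, the co-activator GCN1 at -0.07, and PPP1R15A, the stress-induced subunit of the eIF2 phosphatase, at 0.53.

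A gene was called higher or lower in GCN2KO when its log2 fold change was at least 1 in size with an edgeR quasi-likelihood adjusted p of at most 0.05. By this rule 2368 genes, 14.9% of those tested, differed between GCN2KO HDW and WT HDW. The 1126 higher genes were 7.1% and the 1242 lower genes 7.83%. Adjusted p alone was passed by 5690 genes in the higher direction (35.9%) and 5677 in the lower (35.8%), 71.7% in all, and the libraries of the 2 genotypes did not overlap for 57.2%. Counts of called genes in the lists below are to be read beside these shares of all genes. The replicates were tight, with a biological coefficient of variation of 0.074, so the fold threshold set most of the calls. Over all tested genes the median log2 fold change was 0.00. Without GCN2KO HDW replicate 5 there were 1221 higher and 1406 lower genes. The 721 tested genes of chromosome 5 had a median of 0.36, against -0.10 to 0.05 on the other chromosomes. Of the genes named below, STC2, CANX, FBN2, DUSP1, TSLP, STARD4, EGR1, ADAM19, TENM2, HBEGF and RPL37 lie there, and the part of this shift in their values was not tested. The plot of normalized counts by library shows 15 genes described in the sections that follow.

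**Figure D1:**
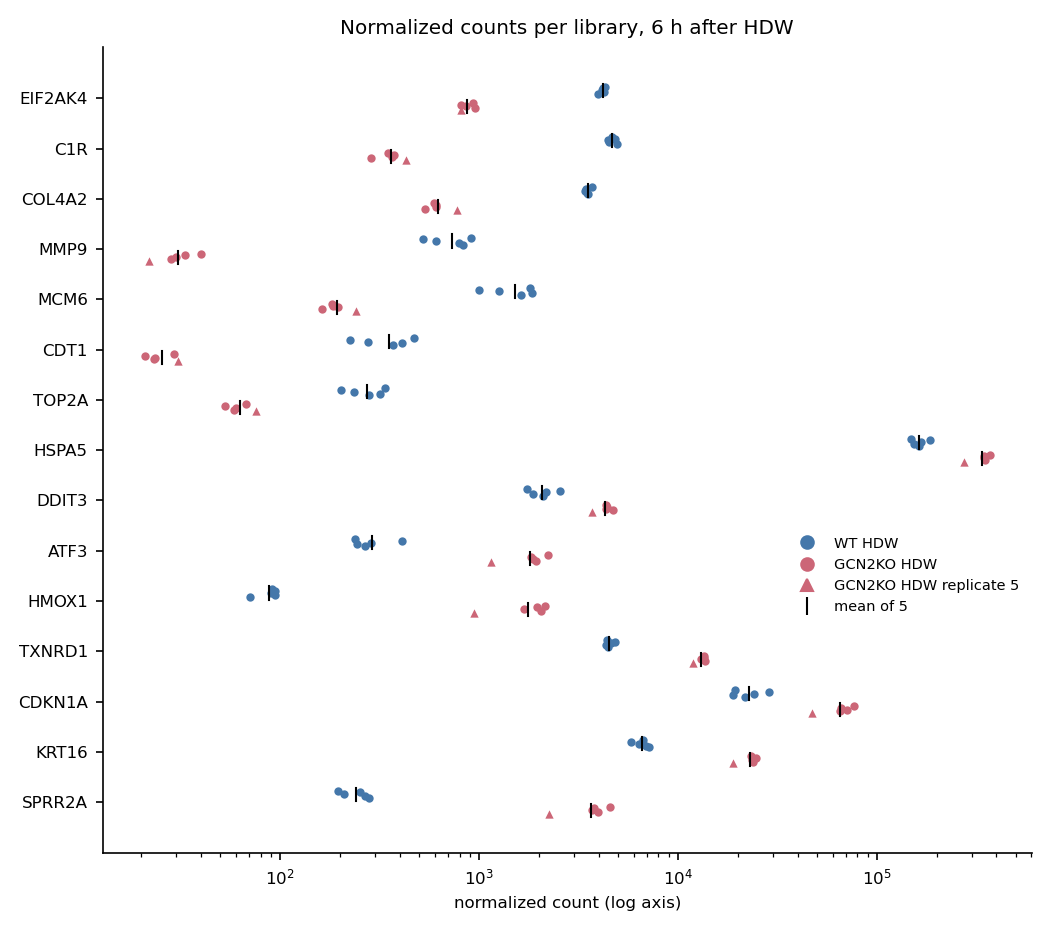
Normalized counts (log axis) of 15 genes in each of the 5 WT HDW and 5 GCN2KO HDW libraries, 1 point per library, with the mean of 5 as a black bar and GCN2KO HDW replicate 5 as a triangle. The genotypes do not overlap for any of the 15 genes, and replicate 5 is the GCN2KO library nearest to WT for most of them, for example ATF3, HMOX1 and SPRR2A.

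Some genes of the integrated stress response were still higher in GCN2KO after HDW. Of 19 regulators and targets of ATF4 and CHOP, 4 were higher, beside 7.1% of all genes, with a median log2 fold change of 0.36 against 0.00 over all genes. By adjusted p alone 11 were higher and 4 lower, the lowest at -0.71, and 13 of the 19 lay above 0. ATF3, a stress-induced repressor and activator of the same family, had 239, 409, 287, 244 and 268 normalized counts in WT HDW and 2233, 1834, 1863, 1936 and 1151 in GCN2KO HDW. All GCN2KO values were above all WT values, with the WT maximum in replicate 2 and the GCN2KO minimum in replicate 5 (log2 fold change 2.64 ± 0.17, adjusted p = 1.28e-08 by edgeR). The others were the cytokine GDF15 (1.19), the secreted glycoprotein STC2 (1.14) and DDIT3 (1.04), which encodes CHOP. DDIT3 had 1745, 2568, 2164, 1867 and 2102 normalized counts in WT HDW and 4338, 4400.1, 4369, 4706 and 3708 in GCN2KO HDW. Its exons overlap MARS1 on the opposite strand over 31.6% of their length, and without WT HDW replicate 1 its log2 fold change was 0.98, just under the threshold. ATF4 mRNA itself was -0.06 (adjusted p = 0.261 by edgeR).

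Without a wound the same list stood higher. Its median was 1.03 in GCN2KO against WT unwounded, where 10 of 19 genes were higher beside 8.21% of all genes, 8.22% being lower. The interaction of genotype and HDW, which is the genotype difference after HDW minus that in unwounded cells, was tested across all 20 samples and called 192 genes higher (1.16%) and 355 lower (2.15%), 3.31% in all. Of these lower calls 6 lay in this list. TRIB3, a pseudokinase that feeds back on ATF4, was at 3.69 unwounded and 0.90 after HDW (interaction -2.79, adjusted p = 2.98e-08 by edgeR). CHAC1, which degrades glutathione, went from 2.92 to 0.76, DDIT3 from 2.85 to 1.04 and STC2 from 2.83 to 1.14. ATF3 kept 2.64 beside 3.24 and was not among the interaction calls (adjusted p = 0.0798 by edgeR).

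Promoters of this list were read for the composite element of C/EBP and ATF proteins, written TGATGNAA and searched on both strands from 250 bases before to 50 after the start of each gene (RefSeq, GRCh38.p14). It stood in 2 of 16 promoters of the list, ATF3 and CHAC1, in 4 of 18 of the amino acid enzymes below, and in 1.73% of 11248 promoters of tested genes. The bases before the CHAC1 start (chr15:40953221-40953470, plus strand) are shown because CHAC1 had one of the larger interactions, with the element in capitals, here on the reverse strand. A match of letters is no measure of binding.
CHAC1: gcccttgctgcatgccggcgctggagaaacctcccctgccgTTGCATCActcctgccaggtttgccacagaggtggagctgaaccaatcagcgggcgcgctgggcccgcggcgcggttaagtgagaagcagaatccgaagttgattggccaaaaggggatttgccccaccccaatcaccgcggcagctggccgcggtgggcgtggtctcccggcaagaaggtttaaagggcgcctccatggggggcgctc

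Amino acid enzymes were split. Of 26 enzymes of amino acid synthesis, 3 were higher and 2 lower after HDW, 19.2% called beside 14.9% of all genes. By adjusted p alone 17 were lower, beside 35.8% of all genes, and 4 higher. The median was -0.28. The higher enzymes were CTH, which makes cysteine from cystathionine (1.16 ± 0.11), the aspartate aminotransferase GOT1 (1.22 ± 0.10) and ARG2, the mitochondrial arginase (1.16 ± 0.07). CTH had 325, 557, 486, 368 and 432 normalized counts in WT HDW and 897, 1028, 985, 931 and 1002 in GCN2KO HDW. GLUL, glutamine synthetase, was lower, with 42111, 30181, 36217, 40257 and 41047 in WT HDW and 7529, 10298, 10216, 10709 and 19322 in GCN2KO HDW. Replicate 5 was the highest GCN2KO library for GLUL, and still below every WT library (-1.71 ± 0.20, edgeR adjusted p = 2.49e-06). ASL, which releases arginine in its synthesis, was lower as well (-1.22 ± 0.06), beside its partner ASS1 at -0.91.

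The interaction was lower for 11 of 26 genes of this list. Its median was 0.53 unwounded and -0.28 after HDW. ASNS, asparagine synthetase, was 2.12 unwounded and -0.31 after HDW. PSAT1 of serine synthesis was 1.69 and -0.58, the one-carbon enzyme MTHFD2 1.74 and 0.10, and CTH 4.03 and 1.16. For PSAT1 and ASNS the genotype difference after HDW was thus on the lower side, without reaching the fold threshold.

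Transporters and tRNA charging enzymes held few calls after HDW. Of 23 tested amino acid transporters 1 was higher, the large neutral amino acid carrier SLC43A2, and the median was 0.09. Without WT HDW replicate 2, 2 were higher and 1 lower, and without GCN2KO HDW replicate 5, 2 were lower. SLC43A2 had 135, 241, 170.5, 137 and 151 normalized counts in WT HDW and 416, 358, 366, 354 and 273 in GCN2KO HDW (1.08 ± 0.15, edgeR adjusted p = 1.73e-05). Unwounded it was at -0.76, the opposite side of 0, and its interaction was 1.85. The cystine carrier SLC7A11 was 0.96 and its heavy chain SLC3A2 0.65, both under the fold threshold. Of 20 cytosolic tRNA synthetases 1 was lower, QARS1 for glutamine (-1.07 ± 0.08), and 1 was higher without WT HDW replicate 2 or GCN2KO HDW replicate 5. The median of the synthetases was 0.02 after HDW and 0.88 unwounded, where 9 were higher. GARS1 for glycine went from 1.69 to 0.27 and MARS1 for methionine from 1.15 to -0.15.

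**Figure D2:**
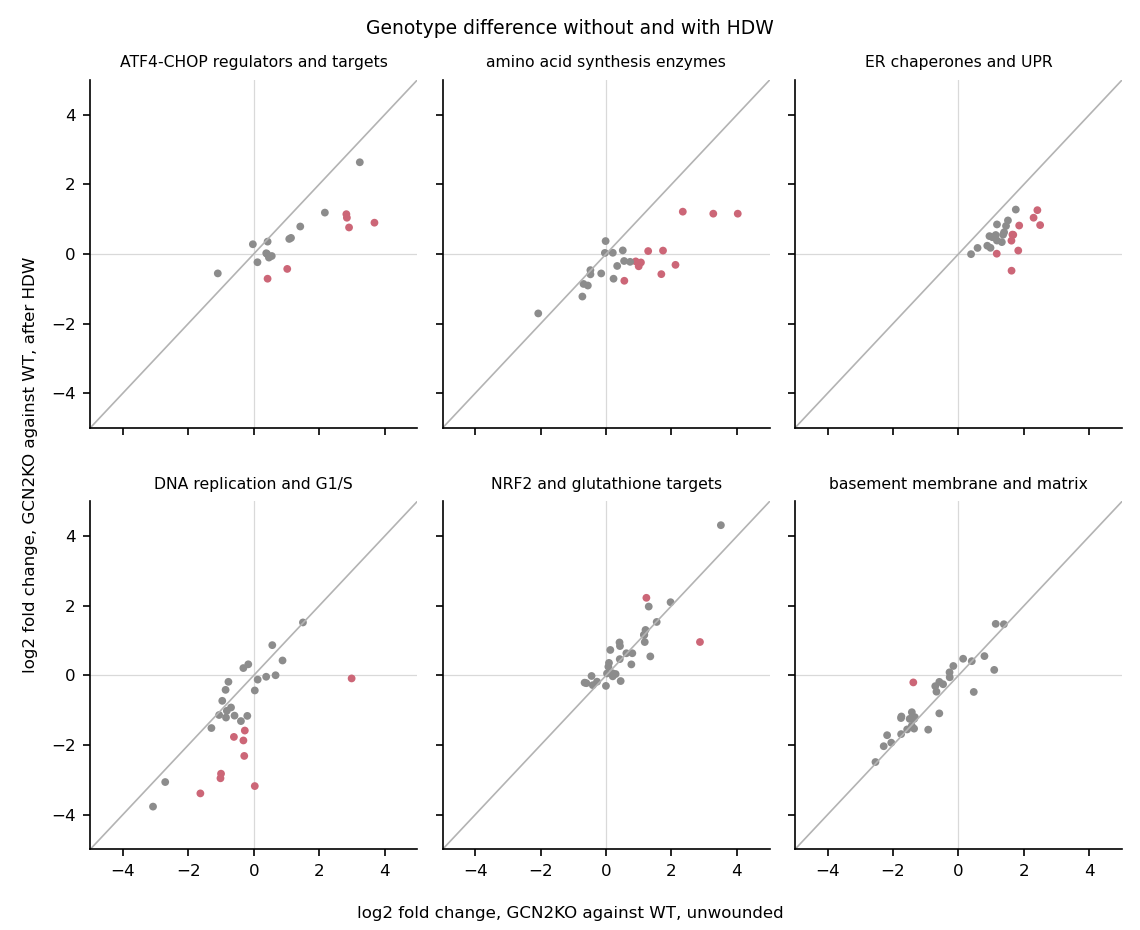
Log2 fold change of GCN2KO against WT for each gene of 6 lists, unwounded on the horizontal axis and after HDW on the vertical axis, 1 point per gene. Points on the diagonal have the same difference in both states and red points are called by the interaction test. Most points of the ATF4-CHOP, amino acid and ER lists lie to the right of and below the diagonal, DNA replication genes include 9 red points below it, and the matrix genes lie along it.

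Chaperones of the ER differed by small amounts toward the higher side. Of 25 chaperones and genes of the unfolded protein response, 21 were higher by adjusted p alone beside 35.9% of all genes, 3 also passed the fold threshold, and the median was 0.55. HSPA5, the main Hsp70 of the ER (BiP), had 148345, 185338, 167676, 153678 and 163392 normalized counts in WT HDW and 370318, 345323, 344821, 349209 and 275580.0 in GCN2KO HDW. The GCN2KO libraries lay above all WT libraries, with replicate 5 lowest among them (2.06-fold, log2 fold change 1.04 ± 0.08, edgeR adjusted p = 5.29e-08). CANX, a lectin chaperone of glycoproteins, was 1.28 ± 0.06 and DNAJB9, a co-chaperone of HSPA5, 1.26 ± 0.16. HSP90B1 (0.96), CREB3L2 (0.85) and HERPUD1 (0.83) came near the threshold from below.

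In unwounded cells 20 of 25 were higher and the median was 1.40. The interaction was lower for 10 of them. The difference of HSPA5 was 2.30 unwounded and 1.04 after HDW (interaction -1.25, adjusted p = 1.16e-05 by edgeR), HERPUD1 stood at 2.50 and 0.83, and SDF2L1 at 1.83 and 0.10. Without GCN2KO HDW replicate 5 the list had 4 higher genes and a median of 0.59.

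The ER stress response element, CCAAT followed by CCACG after 9 bases of any kind and read on either strand, was found in 7 of 23 promoters of this list, those of HSPA5, HSP90B1, CALR, CANX, CRELD2, XBP1 and ERO1B. In 11248 promoters of tested genes it stood in 0.124%, and in 2 of 697 promoters of higher genes. The list was chosen by function, so its share is no result about the genotype difference. These 7 genes had log2 fold changes of 1.04, 0.96, 0.55, 1.28, 0.55, 0.34 and 0.55 after HDW. The bases before the HSPA5 start (chr9:125241344-125241593, minus strand) show the element in capitals.
HSPA5: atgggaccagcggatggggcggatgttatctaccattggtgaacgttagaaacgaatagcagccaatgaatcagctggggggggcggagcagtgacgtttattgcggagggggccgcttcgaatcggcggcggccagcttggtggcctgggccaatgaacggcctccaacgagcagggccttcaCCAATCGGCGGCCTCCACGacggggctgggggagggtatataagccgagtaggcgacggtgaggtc

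A group of antioxidant genes was higher. Of 31 targets of the transcription factor NRF2 and genes of glutathione metabolism, 8 were higher after HDW, beside 7.1% of all genes. By adjusted p alone 20 were higher, beside 35.9% of all genes, and 3 lower. The median was 0.55. Unwounded, 11 were higher, beside 8.21% of all genes, with a median of 0.42. HMOX1, the heme oxygenase, had 91.1, 94.2, 90.3, 94.7 and 70.9 normalized counts in WT HDW and 2163, 1966, 1688, 2045 and 949.9 in GCN2KO HDW. Every GCN2KO library was above every WT library by a wide margin (19.9-fold, 4.32 ± 0.21, edgeR adjusted p = 9.63e-10), and replicate 5 was lowest of the GCN2KO libraries. TXNRD1, thioredoxin reductase, had 4396, 4809, 4639, 4337 and 4459 and 13543, 13554, 13049, 13645 and 11898 (2.9-fold). The ferritin light chain FTL was 1.17 ± 0.09, the aldo-keto reductase AKR1C1 1.17 ± 0.05, OSGIN1 2.23, the export pump ABCC2 1.98, the selenoprotein GPX2 2.10 and TRIM16L 1.31. NQO1 (0.96), GCLM (0.95) and SLC7A11 (0.96) were just under the threshold, and without WT HDW replicate 2 NQO1 (1.04) and SLC7A11 (1.07) passed it. AKR1C1 has near-identical copies among its neighbours, of which AKR1C2 was 0.06 and AKR1C3 -0.21, so its value is uncertain to that extent. NFE2L2, the gene of NRF2, was 0.25 and its inhibitor KEAP1 -0.28.

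The antioxidant response element, TGACNNNGC on either strand, stood in 6 of 22 promoters of this list (27.3%) and in 15.2% of 11248 promoters. Other lists held it at 26.1% (ER), 25.0% (DNA replication) and 22.2% (amino acid enzymes), the mitotic list in 4 of 20, and it stood in 16.4% of promoters of higher and 15.9% of lower genes. Among called members it was found in TXNRD1 and GPX2. The TXNRD1 bases (chr12:104215529-104215778, plus strand) are shown with the element in capitals.
TXNRD1: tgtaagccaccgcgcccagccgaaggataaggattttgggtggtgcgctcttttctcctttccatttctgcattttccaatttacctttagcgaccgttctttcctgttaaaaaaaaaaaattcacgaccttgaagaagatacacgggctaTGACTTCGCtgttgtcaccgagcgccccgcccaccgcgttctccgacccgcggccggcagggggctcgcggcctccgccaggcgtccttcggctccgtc

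Some enzymes that produce peroxide and oxidized lipids were lower. Of 14 tested NADPH oxidase and lipoxygenase genes 4 were lower and the median was -0.74. DUOX1, a dual oxidase, had 2564, 1938, 2125, 2506 and 2358 normalized counts in WT HDW and 739.8, 917, 946, 998 and 1214 in GCN2KO HDW (-1.26 ± 0.11). ALOX15B was -1.94 ± 0.18, with replicate 5 at 347 normalized counts against 143 to 174 in the other GCN2KO libraries. ALOX5 (-1.41 ± 0.27) and ALOX12B (-1.15 ± 0.16) were at low counts. PTGS2, the inducible cyclooxygenase, was 0.05.

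Ribosomal protein transcripts took less of the GCN2KO libraries. The 90 cytosolic ribosomal protein genes held 9.88% ± 0.34 (SD) of WT HDW counts and 6.73% ± 0.367 of GCN2KO HDW counts, with no overlap. In single WT HDW libraries the share was 9.99%, 9.35%, 9.86%, 9.93% and 10.3%, and in GCN2KO HDW 6.32%, 6.63%, 6.57%, 6.79% and 7.31%. The two-sided exact permutation test gave p = 0.00794, the smallest that 5 against 5 allows, and the same value after adjustment over 5 shares. Of 85 tested genes 75 were lower by adjusted p alone beside 35.8% of all genes, 10 passed the fold threshold, and the median log2 fold change was -0.51.

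RPS6, the S6 protein that growth factor kinases phosphorylate, was at 66603 ± 3331 normalized counts in WT HDW and 23520.0 ± 1819 in GCN2KO HDW (SD, n = 5 each; log2 fold change -1.50). RPS2 was -1.42 and RPL28 -1.23. The 1 higher gene was RPS27L (1.22), a paralog of RPS27 known as a p53 target, and RPL37 was 0.22. These genes were named after their values were seen. Unwounded, the median was -0.20, and the share was 10.9% ± 0.346 in WT and 8.72% ± 1.22 in GCN2KO. Ribosomal protein genes have many processed pseudogenes that can take or lose reads.

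Keratin genes held 3.04% ± 0.0599 of WT HDW and 4.31% ± 0.089 of GCN2KO HDW counts, S100 genes 0.691% ± 0.0475 and 0.842% ± 0.0384, matrix genes 2.53% ± 0.0365 and 1.73% ± 0.0348, and genes of the mitochondrial genome 0.583% ± 0.0326 and 0.687% ± 0.0206 (SD, n = 5). Each had the same exact permutation p of 0.00794. Unwounded, the mitochondrial share lay the other way, at 0.522% ± 0.0218 in WT and 0.482% ± 0.0542 in GCN2KO. Shares within a library are tied to each other, and less RNA of one kind cannot be told apart from more of another.

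**Figure D3:**
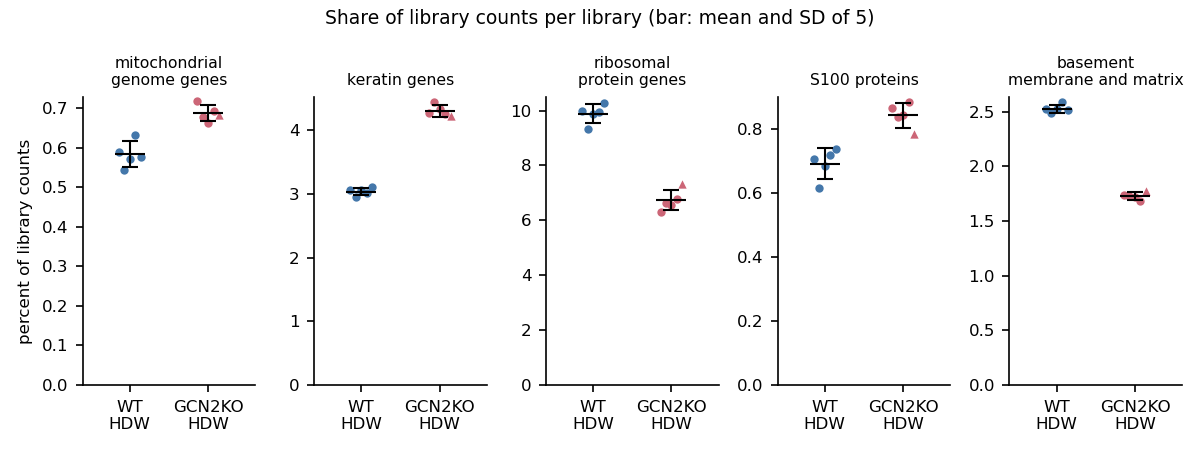
Percent of library counts taken by 5 gene groups in each WT HDW and GCN2KO HDW library, 1 point per library, with the mean and SD of 5 as black bars and GCN2KO HDW replicate 5 as a triangle; each axis starts at 0. Ribosomal protein and matrix genes are lower in all 5 GCN2KO libraries, and keratin, S100 and mitochondrial genome genes are higher, without overlap.

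Many genes of the cell cycle were lower in GCN2KO after HDW. Of 31 genes of DNA replication and the G1/S step 17 were lower, beside 7.83% of all genes, and 1 was higher, with a median of -1.14. MCM6, a subunit of the replicative helicase, had 1817, 999, 1261, 1855 and 1638 normalized counts in WT HDW and 183, 184, 196, 162 and 241 in GCN2KO HDW (7.76-fold lower, -2.96 ± 0.17, edgeR adjusted p = 3.53e-09). CDT1, which loads the helicase, had 475, 225, 277, 411 and 370.2 and 29.2, 20.9, 23.5, 23.4 and 30.6 (13.6-fold lower). The WT libraries spread widely for both genes, replicate 2 being lowest, yet all lay above the GCN2KO libraries. The loading and firing factors GINS2 (-3.18) and CDC45 (-2.82), the helicase subunits MCM2 (-1.87), MCM3 (-1.77), MCM4 (-1.58), MCM5 (-2.31) and MCM7 (-1.16), the transcription factor E2F1 (-3.39) and the nucleotide enzyme RRM2 (-3.06) were lower too, as was the G1 kinase CDK4 (-1.51 ± 0.06), whose exons overlap TSPAN31 on the opposite strand over 44.2%.

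The higher member was CDKN1A, the inhibitor p21 that halts the cell cycle. It had 19402, 28863, 24269, 19044 and 21859.8 normalized counts in WT HDW and 77039.6, 65813, 70567, 65249 and 47187 in GCN2KO HDW (1.52 ± 0.13, edgeR adjusted p = 1.53e-07). Of 25 tested genes of mitosis 17 were lower, with a median of -1.44. TOP2A, the topoisomerase that untangles chromosomes, had 336, 202, 235, 319 and 279 and 67.6, 52.7, 60.4, 58.5 and 75.7 (-2.11 ± 0.15). The proliferation marker MKI67 was -2.24 ± 0.22, the spindle motor KIF11 -1.41 ± 0.11, the mitotic kinase CDK1 -1.99 and the anaphase activator CDC20 -1.77. CDK1 was at 78.4 ± 8.58 in WT HDW and 19.4 ± 7.16 in GCN2KO HDW (SD, n = 5 each). In bulk RNA, fewer cycling cells and less RNA per cell cannot be told apart.

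Several replication genes separated further after HDW than without it. The list median was -0.39 unwounded, where 6 were lower and 2 higher, and 9 had a lower interaction, namely MCM2, MCM3, MCM4, MCM5, MCM6, GINS2, CDC6, CDC45 and E2F1. GINS2 was 0.03 unwounded and -3.18 after HDW, and MCM5 -0.29 and -2.31. CDC6, which recruits the helicase, separated less after HDW, at 2.99 unwounded and -0.09 after HDW. The mitotic genes had 1 lower interaction and medians of -0.99 and -1.44.

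Promoters of both lists were read for known cell cycle elements. An E2F element, TTTCCCGC or TTTGGCGC on either strand, stood in 11 of 24 promoters of the replication list (45.8%), in 3.63% of 11248 promoters, in 5.78% of 830 promoters of lower genes and in 2.01% of 697 promoters of higher genes. The cell cycle homology region, TTTGAA on either strand, stood in 14 of 20 promoters of the mitotic list (70.0%) and in 9.71% of all. It stood in 12.7% of promoters of lower and 12.1% of higher genes. Both lists were chosen by function, so their shares are no result about the genotype difference. The bases before CDT1 (chr16:88803539-88803788, plus strand), E2F1 (chr20:33686386-33686635, minus strand) and TOP2A (chr17:40417897-40418146, minus strand) are shown with the searched element in capitals, TTTCCCGC for CDT1, TTTGGCGC for E2F1 and TTTGAA for TOP2A, each also where it lies on the reverse strand. All promoters are written 5′ to 3′ on the strand of the gene.
CDT1: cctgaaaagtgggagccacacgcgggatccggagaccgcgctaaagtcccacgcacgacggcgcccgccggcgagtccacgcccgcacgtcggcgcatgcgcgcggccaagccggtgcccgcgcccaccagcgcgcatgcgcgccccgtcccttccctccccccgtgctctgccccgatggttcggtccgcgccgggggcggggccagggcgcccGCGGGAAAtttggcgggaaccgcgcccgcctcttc
E2F1: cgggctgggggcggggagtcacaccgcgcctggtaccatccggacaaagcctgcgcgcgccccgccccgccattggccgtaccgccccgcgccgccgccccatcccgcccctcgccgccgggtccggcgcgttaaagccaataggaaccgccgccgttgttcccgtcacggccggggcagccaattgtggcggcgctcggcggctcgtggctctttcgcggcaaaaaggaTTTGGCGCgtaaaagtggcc
TOP2A: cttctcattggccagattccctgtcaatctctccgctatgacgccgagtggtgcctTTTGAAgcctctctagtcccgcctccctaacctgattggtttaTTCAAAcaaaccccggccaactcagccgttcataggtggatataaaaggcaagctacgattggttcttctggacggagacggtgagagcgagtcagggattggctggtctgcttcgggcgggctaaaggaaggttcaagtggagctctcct

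**Figure D4:**
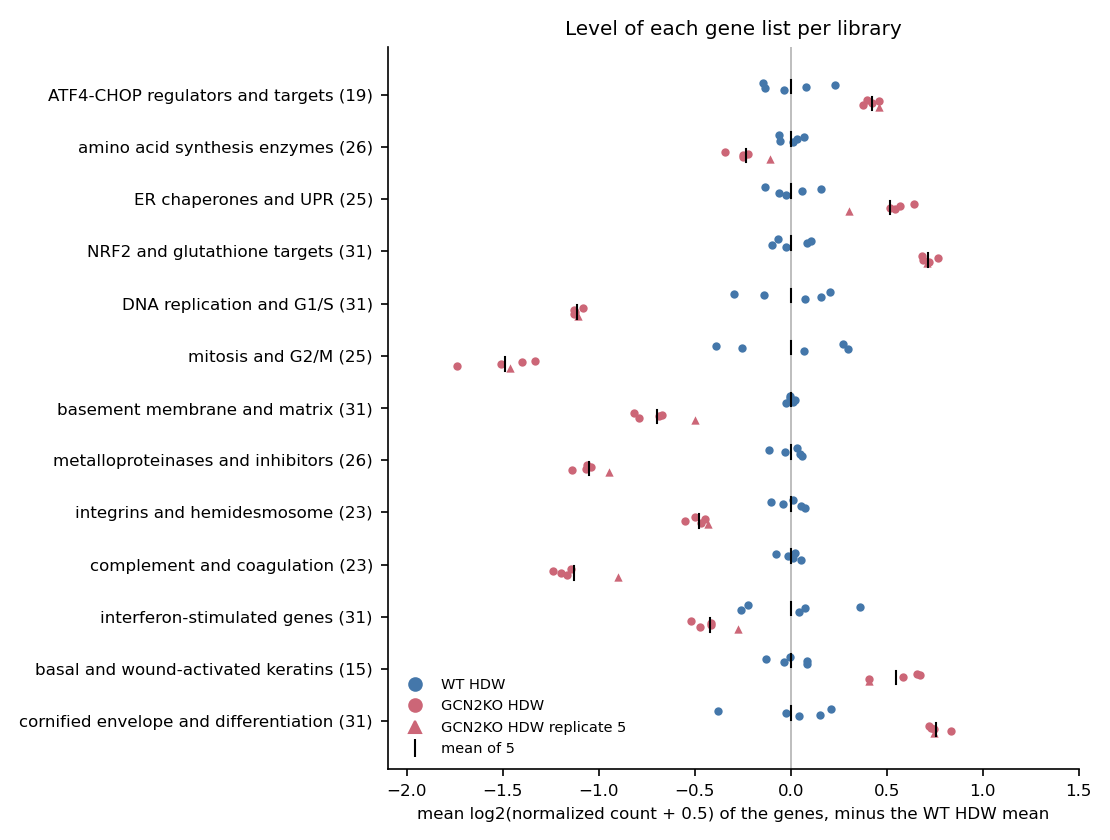
Level of 13 gene lists in each library, as the mean log2(normalized count + 0.5) of the tested genes (their number in brackets) minus the mean of the WT HDW libraries, with the mean of 5 as a black bar and GCN2KO HDW replicate 5 as a triangle. Mitosis lies farthest below WT, at -1.33 to -1.74, NRF2 targets and cornified envelope genes farthest above, and GCN2KO replicate 5 is nearest to WT for the ER, matrix and complement lists.

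Many components of the basement membrane were lower. Of 31 tested matrix genes 16 were lower and 2 higher, with a median of -1.06 after HDW and -0.92 unwounded. COL4A2, a chain of the type IV collagen network, had 3703, 3448, 3434, 3481 and 3528 normalized counts in WT HDW and 594, 607, 608, 537 and 776 in GCN2KO HDW (5.61-fold lower, -2.49 ± 0.07, edgeR adjusted p = 2.03e-11). Its partner COL4A1 was -1.93 ± 0.09. Of the laminin chains, by which keratinocytes attach and move, LAMA3 was lower, with 111931, 108002, 114047, 117586 and 116752 and 47878, 51821, 51935, 50278 and 64924 (2.13-fold lower), and LAMB3 was 0.16. The lower genes also held the hemidesmosome collagen COL17A1 (-1.25 ± 0.05), the anchoring fibril COL7A1 (-1.22), perlecan HSPG2 (-1.72), laminins LAMA1 (-2.03) and LAMA5 (-1.45), nidogen NID1 (-1.20) and COL18A1 (-1.69). NID2 (1.47 ± 0.10) and the fibrillin FBN2 (1.48 ± 0.08) were higher. Fibronectin (FN1) was -0.25. LAMB1 alone in the list had an interaction call, at -1.38 unwounded and -0.20 after HDW.

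Integrins are the receptors for these ligands. Of 23 tested integrin and hemidesmosome genes 4 were lower and 1 higher, 21.7% called beside 14.9% of all genes, with a median of -0.29. ITGB6, which with ITGAV forms a wound-induced receptor that activates TGF-beta, had 8021, 6167, 6931, 7658 and 7567 normalized counts in WT HDW and 2178, 2622, 2535, 2581 and 3753 in GCN2KO HDW (-1.41 ± 0.12). ITGB5 was -1.20 ± 0.09 and the kindlin FERMT1 -1.19. ITGA4 was at 70.7 ± 13.4 and 3.92 ± 1.02, and lies over exons of CERKL on the opposite strand for 26.4%. The main keratinocyte receptors stayed under the threshold, with ITGA6 (-0.56), ITGB4 (-0.90), ITGA3 (-0.58) and ITGB1 (-0.82). ITGA10, at about 8.94 and 19.8 counts, was higher at the limit of the rule (1.02 ± 0.37), and its log2 fold change fell under 1 without any one of WT HDW replicates 1 (0.96), 2 (0.99) and 3 (0.93) or GCN2KO HDW replicates 1 (0.97), 2 (1.00) and 4 (0.73). Without WT HDW replicate 5, 2 genes of the list were higher.

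Secreted proteases were lower in greater number than higher. Of 26 tested metalloproteinase, plasminogen and inhibitor genes 10 were lower and 3 higher, with a median of -0.62. MMP9, a gelatinase of migrating keratinocytes, had 911, 524, 611, 796 and 835 normalized counts in WT HDW and 40, 33.5, 30.2, 28.4 and 22 in GCN2KO HDW. The lowest WT library was still far above the highest GCN2KO library (23.4-fold lower, -4.55 ± 0.19, edgeR adjusted p = 2.88e-10). ADAM19 was -1.63 ± 0.07, the plasminogen activator PLAU -1.47, MMP28 -1.77 and MMP2 -3.01, and the membrane protease MMP14 -0.97. ADAM8 was -2.02 after HDW and 0.55 unwounded, on the other side of 0 (interaction -2.57, adjusted p = 1.28e-10 by edgeR). ADAM9 (1.03 ± 0.05) and ADAMTS1 (1.08 ± 0.12) were higher, and MMP24 (1.01 ± 0.18) at low counts. Without GCN2KO HDW replicate 1 the higher genes were 1 in place of 3, with ADAMTS1 at 0.995 and MMP24 at 0.91. MMP24 was also under 1 without WT HDW replicate 1 (0.99), 3 (0.93) or 5 (0.97) or GCN2KO HDW replicate 4 (0.96). The inhibitors TIMP1 (0.20), TIMP2 (0.20) and TIMP3 (-0.59) did not pass.

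Semaphorins and their receptors, which guide cell movement, were called at 21.7%, beside 14.9% of all genes. Of 23 tested genes 4 were lower and 1 higher, with a median of -0.37. Unwounded, 7 were lower and 2 higher, with a median of -0.62. SEMA3A, a secreted repulsive ligand, had 352, 252.4, 313, 406 and 349 normalized counts in WT HDW and 97.6, 77.8, 90.6, 75.2 and 68 in GCN2KO HDW (-2.01 ± 0.13). SEMA4A was -1.17 ± 0.08 and SEMA3B -1.69, while SEMA3E was higher (1.16 ± 0.12), and 2 were higher without WT HDW replicate 2 or GCN2KO HDW replicate 1. PLXND1, the receptor of SEMA3E, was near the detection limit in GCN2KO HDW, with 1 to 4 counts a library against 38 to 59 in WT HDW (-4.34 ± 0.31). The co-receptor NRP1 was 0.98.

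Contractile genes differed mostly by small amounts toward the lower side. Of 27 tested actin and contractile genes 3 were lower (11.1%), beside 7.83% of all genes. By adjusted p alone 20 were lower, beside 35.8% of all genes, and 3 higher. The median was -0.36. TAGLN, an actin-binding protein of contractile cells, had 835, 539, 755, 926 and 890.0 normalized counts in WT HDW and 210.2, 254, 186, 191 and 187 in GCN2KO HDW (-1.93 ± 0.14, edgeR adjusted p = 2.62e-08). Unwounded it was 1.12, the opposite direction, and its interaction of -3.06 was among the largest in size of the named genes. TAGLN shares 47.8% of its exons with an unnamed gene on the same strand. MYL9, the regulatory light chain of myosin, was -1.26 ± 0.14 after HDW and 0.64 unwounded, and the scaffold AKAP12 -3.53 ± 0.18 and -2.06. Cytoplasmic actins were ACTB (-0.95) and ACTG1 (-0.74).

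Among GTPases that steer migration, RAC1 was 0.22 ± 0.04 and RHOA 0.17 ± 0.04, both past adjusted p and far under the fold threshold. Of 27 tested small GTPases of this family and their exchange factors 3 were higher and 1 lower, with a median of 0.16. RND1, which opposes RHOA, had 10.1, 26.1, 21.1, 19.9 and 18.2 normalized counts in WT HDW and 95.9, 103, 86.4, 104 and 73.7 in GCN2KO HDW (2.27 ± 0.19). RHOU was 1.17 ± 0.18 and VAV1 1.91 ± 0.33, both at low counts, and RAC3 -1.06 ± 0.11. RAC3 was -0.99 without GCN2KO HDW replicate 1. The exchange factors ARHGEF2 (0.45), ARHGEF18 (0.25), TIAM1 (0.16) and TIAM2 (-0.06) did not pass the threshold, and ARHGEF6 was too low to be tested.

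EGF receptor signalling genes were called at 13.3%, near the 14.9% of all genes. Of 15 ligands and receptors the ligand EGF was higher (1.66 ± 0.27) and the receptor ERBB4 lower (-2.51 ± 0.36), both at low counts, and the median was -0.17, or -0.28 without WT HDW replicate 1 or 3. EGFR was 0.37, and the wound-induced ligands were HBEGF (-0.17), AREG (-0.56) and EREG (-0.15). AREG (0.70) and EREG (1.24) were on the higher side unwounded, with interactions of -1.26 and -1.39. Of 28 tested AP-1, EGR and ERK feedback genes 2 were higher and 2 lower, with a median of -0.29. That is 14.3% called, also near the 14.9% of all genes. EGR1, an immediate early transcription factor, had 4843, 4821, 5060.4, 4708 and 5005 normalized counts in WT HDW and 1249, 1402, 1292, 1356 and 1870.2 in GCN2KO HDW (-1.77 ± 0.09, edgeR adjusted p = 1.23e-09). DUSP1, a phosphatase that turns off MAP kinases, had 319.5, 321, 346, 289 and 331 and 1801, 1682, 1659.7, 1566 and 1186 (2.30 ± 0.10). The feedback inhibitor SPRY2 was -1.05 ± 0.07. MYC was -0.95, FOSL1 -0.96 and JUNB -0.90, just under the threshold.

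Several keratins were higher. Of 15 tested keratins and vimentin 6 were higher and 1 lower, with a median of 0.53 after HDW and 1.39 unwounded. KRT16 had 6713, 5788, 6399.7, 6955 and 7159 normalized counts in WT HDW and 23285, 24772, 23680.4, 23989.7 and 19017 in GCN2KO HDW (3.48-fold, 1.80 ± 0.07, edgeR adjusted p = 2.75e-10). KRT17 was 1.08 ± 0.06, the simple keratins KRT8 (1.33) and KRT18 (1.06), the hair keratin KRT81 1.70 and the mesenchymal filament VIM 1.75 ± 0.08. KRT15, a basal keratin, was lower, with 136066, 116230.0, 129755, 130819 and 140099 and 43477, 55979.5, 56609, 58546 and 84448, replicate 5 nearest to WT (-1.13 ± 0.13). KRT6A was 0.53 and KRT6B -0.09 after HDW, beside 1.31 and 3.10 unwounded. The KRT6 genes are near-identical, and KRT16 and KRT17 have close pseudogenes, so reads may be shared or lost between copies.

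Cornified envelope genes went both ways. Of 31 tested genes 10 were higher and 3 lower, with a median of 0.35. Without WT HDW replicate 2, 5 were lower and the median was 0.20. SPRR2A, a small proline-rich envelope protein, had 195, 253, 210.1, 269 and 279 normalized counts in WT HDW and 4555, 3794, 3716, 3967 and 2243 in GCN2KO HDW (15.2-fold, 3.92 ± 0.17, edgeR adjusted p = 4.07e-10). SPRR2E was 4.01 ± 0.18 and SPRR3 3.38 ± 0.16, with KLK5 at 3.30 and involucrin IVL at 1.96. The largest fitted difference of the list was that of CRNN, a late differentiation gene, with 2 counts over the 5 WT HDW libraries and 192 over the GCN2KO HDW libraries, too few in WT for a fold change. The SPRR2 genes are close copies of each other and their single values are uncertain. The transglutaminase TGM5 was lower (-4.75 ± 0.37), with 1 to 9 counts a library in GCN2KO HDW, as were CALML3 (-1.45) and CALML5 (-1.29) at low counts. CALML3 overlaps an antisense gene over 52.4% of its exons. KRT10 was 0.28 and FLG -0.01. Of 15 S100 genes, with a median of 0.14 (0.23 without GCN2KO HDW replicate 1), S100A6 was higher (1.38 ± 0.11), and S100A8 (0.23) and S100A9 (0.58) were not.

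**Figure D5:**
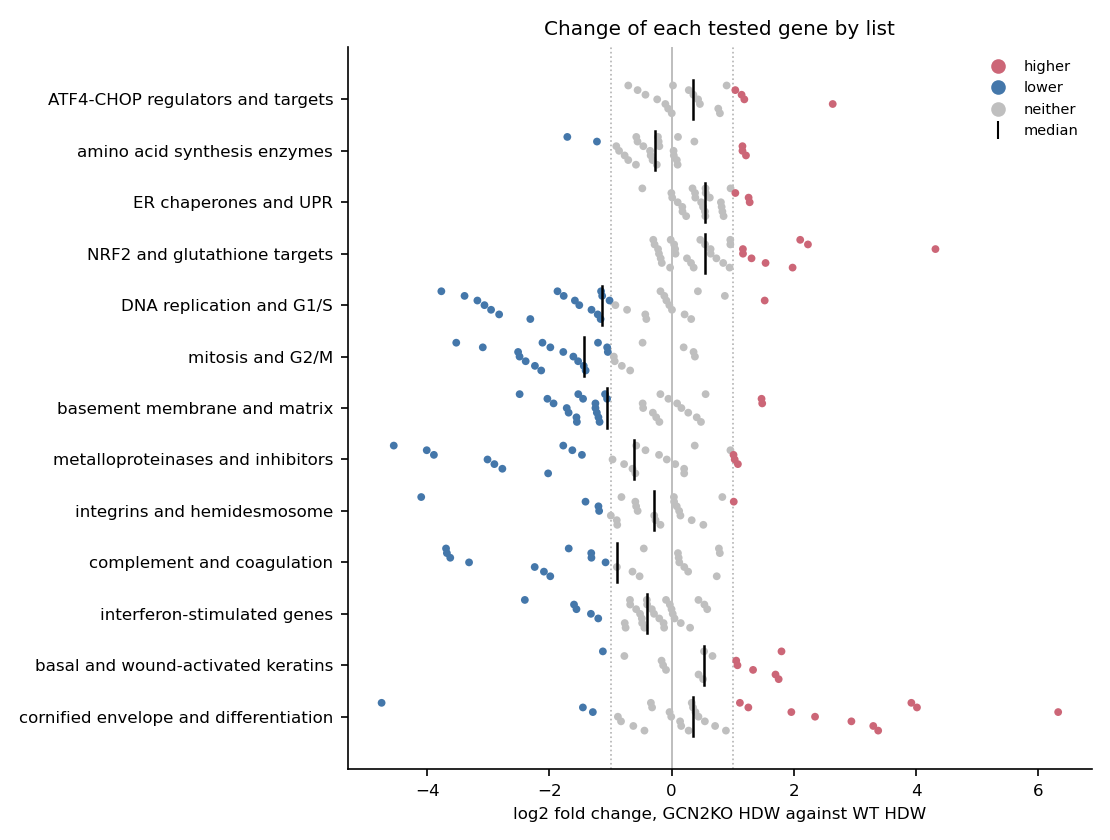
Log2 fold change of GCN2KO HDW against WT HDW for every tested gene of 13 lists, 1 point per gene, with the list median as a black bar and dotted lines at -1 and 1; red marks genes called higher and blue genes called lower. Replication, mitosis, matrix and complement genes lie mostly on the lower side, and ER and NRF2 genes on the higher side.

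Many complement genes were lower in both states. Of 23 tested complement and coagulation genes 11 were lower, with a median of -0.90 after HDW and -1.03 unwounded. C1S, a protease that starts the classical pathway, had 2337, 2269.7, 2101, 2107 and 2345 normalized counts in WT HDW and 163, 171, 164, 164 and 241 in GCN2KO HDW (12.3-fold lower, -3.62 ± 0.09, edgeR adjusted p = 5.67e-12). Its partner C1R was -3.68 ± 0.08, complement C3 -1.68 and the C1 inhibitor SERPING1 -1.32. TFPI2, a matrix serine protease inhibitor, was -3.32 ± 0.10 after HDW and -1.48 unwounded (interaction -1.84). The membrane shields CD46 (0.10) and CD55 (0.12) and tissue factor F3 (0.27) did not pass.

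Cytokines went both ways. Of 23 tested cytokines and chemokines 8 were lower and 2 higher, with a median of -0.24. IL36G, an epidermal alarm cytokine, had 271, 247, 295, 299 and 320.0 normalized counts in WT HDW and 81.7, 106, 72.1, 83.6 and 92.9 in GCN2KO HDW (-1.71 ± 0.11). IL36RN, the antagonist of the same receptor, had 74.2, 101, 104, 99.7 and 87.4 and 507, 485, 446, 508 and 285 (2.26 ± 0.15). IL11 (-1.65 ± 0.10), IL1B (-1.19 ± 0.06), LIF (-1.58) and the chemokine CCL20 (-2.07) were lower, and the epithelial cytokine TSLP (2.30 ± 0.11) was higher. CXCL1 was -1.41 unwounded and -0.02 after HDW (interaction 1.40). Of 31 interferon-stimulated genes 5 were lower (16.1%, beside 7.83% of all genes), led by GBP2 (-2.40), IFITM1 (-1.60) and OASL (-1.20). The median was -0.40, and -0.24 without WT HDW replicate 2, the library highest for this list.

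In TGF-beta and activin signalling 4 genes were higher and 4 lower of 26, with a median of -0.30. The ligand TGFB2 (1.26 ± 0.08) was higher and TGFB1 (-1.22 ± 0.09) lower. The co-receptor TGFBR3 (1.62 ± 0.15) and the decoy receptor BAMBI (2.18 ± 0.23) were higher, and ID1 (-1.46), SMAD6 (-2.94) and ID2 (-1.71) lower. TGFB2 has 34.2% of its exons in common with TGFB2-OT1. ID1 had 10696, 10699.9, 11083, 10136 and 9473 normalized counts in WT HDW and 3544, 4308, 3532, 2971 and 4530.4 in GCN2KO HDW. CEBPD, a stress-induced C/EBP factor, was -1.24 ± 0.19.

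Central metabolism differed in single genes. Of 24 glycolytic genes 3 were higher and 1 lower, with a median of 0.03. That is 16.7% called, near the 14.9% of all genes. Hexokinase HK2 (1.12 ± 0.06), the regulatory enzyme PFKFB4 (1.60 ± 0.10) and enolase ENO2 (1.23 ± 0.09) were higher, and the phosphofructokinase PFKL was lower, with 4809.7, 4572, 4718, 4774 and 5003 normalized counts in WT HDW and 1469.5, 1727, 1629, 1660.0 and 2122 in GCN2KO HDW (-1.47 ± 0.08). The lower genes were 3 without WT HDW replicate 2 or GCN2KO HDW replicate 5, and 2 without GCN2KO HDW replicate 1 or 2. Lactate dehydrogenases were LDHA (0.01) and LDHB (-0.97). Of 31 genes of cholesterol and fatty acid synthesis the sterol carrier STARD4 was higher (1.08 ± 0.09), and the median was 0.04. The share called was 3.23%, under that of all genes. Without WT HDW replicate 2 or GCN2KO HDW replicate 5, 1 gene of this list was lower.

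The 10 largest differences in each direction, among genes with a mean of at least 100 normalized counts in either genotype and no overlap, came from many functions. Highest were the histone genes H4C8 (4.93 ± 0.22) and H2BC15 (3.90 ± 0.28), the fucosyltransferase FUT6 (4.58 ± 0.16), the autophagy gene ATG9B (4.51 ± 0.17), HMOX1, SPRR2E, SPRR2A, the inducible chaperone HSPA6 (4.01 ± 0.32), NKAIN4 (3.93 ± 0.23) and the small GTPase RRAD (3.88 ± 0.10). HSPA6 had 21.1, 22.7, 16.9, 27.9 and 22.5 normalized counts in WT HDW and 504, 409, 346, 383 and 137 in GCN2KO HDW, replicate 5 being lowest. Histone and HSP70 genes have near-identical copies. ATG9B overlaps NOS3 on the opposite strand over 12.3%.

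Lowest was MYADM, a membrane protein of lipid rafts, with 614, 515, 538, 563 and 594 normalized counts in WT HDW and 16.7, 4.18, 10.1, 8.36 and 10.5 in GCN2KO HDW (55.1-fold lower, -5.78 ± 0.16). MGMT, which removes alkyl groups from guanine in DNA, had 220.0, 195, 223, 201 and 255 and 5.84, 5.86, 5.03, 5.02 and 13.4 (-4.93 ± 0.18). CLCA4 (-4.73 ± 0.30), the adhesion protein TENM2 (-4.67 ± 0.13), MMP9, the S phase genes FAM111B (-4.52 ± 0.29), DTL (-4.17 ± 0.23) and CDT1, the growth factor binding protein IGFBP6 (-3.77 ± 0.10) and the protease PAPPA (-3.73 ± 0.18) completed the 10. The differences of MYADM (-5.44), MGMT (-4.65), TENM2 (-4.56) and CLCA4 (-4.55) were of like size unwounded, while DTL was -1.44 there (interaction -2.74, adjusted p = 9.41e-05 by edgeR).

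The difference after HDW shared much with that in unwounded cells, which used other samples. Of 15238 genes tested in both, 1000 were higher after HDW and 722 of them also unwounded, 72.2% of the former and 57.9% of the latter set. Of 1142 lower genes 822 were lower in both, 72.0% and 67.1%, and 1 gene was called in opposite directions. Among genes called after HDW, the interaction had the smallest adjusted p on the higher side for the transcription factor SOX4 (-2.27 unwounded, -1.21 after HDW), SLC43A2, the Notch ligand JAG2 (-2.81, -1.63), FGD3 (-0.14, 1.24), the dynamin DNM3 (0.31, 1.43) and RBMS3 (0.00, 1.17). On the lower side stood the endocytic adaptor SH3KBP1 (0.48, -1.27), ARG2, CTH, ADAM8, TAGLN and TFPI2. SH3KBP1 had 2610.2, 2345, 2513, 2812 and 2557 normalized counts in WT HDW and 948, 1052, 1029, 1088 and 1220.0 in GCN2KO HDW. The comparisons after HDW and the interaction share the wounded samples, so they are set side by side only.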

How the data were processed

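The deposited files held raw counts of reads per Ensembl gene, 1 file per library, made by the authors. The submitters' processing notes name Trimmomatic, STAR, featureCounts, DESeq2 and the build GRCh38. Reads mapped uniquely to exons were counted, replicates were not pooled, and strandedness and annotation release were not given in the sources used here. Reads that fit more than 1 gene copy are therefore lost to the counts, and overlapping genes cannot be told apart. Files were joined on 57500 Ensembl identifiers, of which 56410 matched GENCODE 44 for symbols and positions.

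Genes were kept by edgeR filterByExpr (minimum count 10, minimum total 15), scaled by TMM and tested with the edgeR quasi-likelihood test (edgeR 4.0.16, limma 3.58.1, R 4.3.3), unpaired, GCN2KO HDW against WT HDW, with Benjamini-Hochberg adjustment over all genes. The same fit was made for unwounded cells, and an interaction term was fitted across all 20 libraries. Calls needed a size of 1 or more on the log2 scale with an adjusted p of 0.05 or less. Levels per library are TMM-normalized counts, with 0.5 added before log2 for list levels. Shares of counts were compared by two-sided exact permutation tests over 252 arrangements. Tables and plots were made in Python 3.11.15 with pandas 2.3.3, SciPy 1.17.1 and matplotlib 3.10.9. The code of the tests was checked on simulated counts. For GCN2KO HDW against WT HDW, 200 of 200 changed genes among 15684 were recovered with 1 false call. For the interaction 200 of 200 among 16220 were recovered with 4 false calls. The changed genes were well-counted ones with effects past the fold threshold, and all genes had the same dispersion. The check thus says nothing on low-count genes or on differences near the threshold.

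The genes named were EIF2AK4, those the study's text names, up to 3 higher and 3 lower called genes with the smallest adjusted p in each of 27 gene lists, the 10 largest differences each way among genes with a mean of at least 100 normalized counts in the higher group and no overlap, and the 6 higher and 6 lower interaction genes with the smallest adjusted p among genes called after HDW. Other list members were named after their values were seen. The results of some genes are not reported here. The lists and members were chosen with earlier results of these data known. Promoters came from a RefSeq table (GRCh38.p14), 250 bases before to 50 after a start, and 11248 tested genes matched. Alternatives were DESeq2 1.42.0, other scalings and filters, glmTreat, a fit to all samples, a replicate block, thinning to the smallest library and leaving out each library. Replicate numbers were not used to pair samples. The total counts per library ran from 17042848 to 34611570 in the 10 wounded libraries, and the precision of a level is set by the spread between them.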

Additional observations from a re-analysis of the deposited data

Results flagged for a closer look

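In 22 of 268 groups of 5 values checked, 1 library lay far from the other 4 of its group, and chance gives about 1 in 20. GCN2KO HDW replicate 5 was that library in 18 of them, on the side of WT for all. It was the highest GCN2KO library, in normalized counts, for ITGB6 (3753 against 2178 to 2622), SEMA4A (221 against 166 to 180.3), GLUL (19322 against 7529 to 10709), ALOX15B (347 against 143 to 174), EGR1 (1870.2 against 1249 to 1402), C1S (241 against 163 to 171), GBP2 (146 against 91.9 to 107), MGMT (13.4 against 5.02 to 5.86), CLCA4 (319 against 133 to 184) and TENM2 (20.1 against 10 to 12.5). It was the lowest for GOT1 (2346 against 2767 to 2929), HSPA5 (275580.0 against 344821 to 370318), ADAM9 (21241 against 24319.9 to 25454), KRT16 (19017 against 23285 to 24772), IL36RN (285 against 446 to 508), TGFB2 (2109.6 against 2313 to 2362), HK2 (4419 against 5442 to 5702) and ENO2 (215 against 249 to 256). None of these genes lost its call without this library. The other 4 were the heme oxygenase HMOX1 in WT HDW replicate 5 (70.9 against 90.3 to 94.7), ATF3 in WT HDW replicate 2 (409 against 239 to 287), ARG2 in WT HDW replicate 4 (229 against 196 to 206) and the epidermal lipoxygenase ALOX12B in GCN2KO HDW replicate 4 (31.8 against 17.5 to 21.1).

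For 32 of 129 named genes the genotype difference after HDW departed from that in unwounded cells by the interaction test. The rule was an edgeR adjusted p of at most 0.05 and a size of at least 1, which 3.31% of all tested genes passed. Values are log2 differences, HDW minus unwounded. Among stress response, amino acid and ER genes they were SLC7A11 (-1.90), CHAC1 (-2.15), STC2 (-1.68), DDIT3 (-1.80), ARG2 (-2.11), GOT1 (-1.12), CTH (-2.86), HSPA5 (-1.25) and DNAJB9 (-1.15). Among genes of migration, contraction, proteolysis and coagulation they were AKAP12 (-1.48), TAGLN (-3.06), MYL9 (-1.90), ADAM8 (-2.57), MMP9 (-1.94), PLXND1 (-2.24) and TFPI2 (-1.84). In DNA replication they were MCM6 (-1.94), FAM111B (-2.09) and DTL (-2.74). Further genes below 0 were ALOX12B (-1.34), SPRR2E (-1.48), SPRR2A (-1.55), SPRR3 (-1.03) and SH3KBP1 (-1.74). Above 0 were SLC43A2 (1.85), SMAD6 (1.26), H4C8 (1.30), SOX4 (1.06), JAG2 (1.19), FGD3 (1.38), DNM3 (1.12) and RBMS3 (1.17). The 6 higher and 6 lower genes named for their smallest interaction adjusted p were certain to be among the 32. The count is therefore no result about the named genes.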

How the results depend on the processing

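The counts of higher and lower genes after HDW (1126 and 1242) depended on filter and rule more than on scaling. DESeq2 called 1737 higher and a fit with no low-count filter 1950, both on more genes tested. A mean of at least 50 counts left 563 and 765, and 73 and 207 for the interaction. Testing against the fold threshold itself (glmTreat) gave 554 and 686. Adjusted p alone gave 5690 and 5677, and 1851 and 2075 for the interaction. DESeq2 size factors gave 1128 and 1239 and library size alone 1191 and 1170. Leaving out 1 library gave 1114 to 1262 higher and 1244 to 1406 lower genes, and 171 to 217 and 323 to 371 for the interaction. Same-numbered samples had correlations of -0.11 to 0.10. These low values do not settle whether the numbers pair cultures, which the labels do not state. With the number as a replicate block there were 1127 higher and 1246 lower genes and 182 and 346 interactions. Paired by number, the shares differed by 0.104 (mitochondrial), 1.27 (keratin), -3.16 (ribosomal protein), 0.151 (S100) and -0.799 (matrix) percentage points with an exact p of 0.0625, the smallest that 5 pairs allow. TIAM2, not called, changed sign on thinning (0.10) and without WT HDW (0.00) or GCN2KO HDW (0.020) replicate 1, its range without single libraries being -0.15 to 0.020. Under glmTreat 33 named genes lost their call. Under the other alternatives DDIT3, ADAMTS1, RAC3, MMP24 and ITGA10 did, each without single libraries, and MMP24 and ITGA10 also with no low-count filter. Depth limits PLXND1, TGM5, ITGA4 and other genes near 0 in one genotype.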

Other observations

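Most histone genes were higher in GCN2KO. Of 27 tested genes and pseudogenes of canonical and linker histones, 24 were called higher after HDW, beside 7.1% of all genes. The genotypes did not overlap for 25 of them, beside 57.2% of all genes. Some members were under 10 normalized counts in WT HDW, for example H2AC13 (1.41, and 14.7 in GCN2KO HDW) and H1-12P (1.98 and 55.4). Such genes passed the low-count filter through GCN2KO HDW, where they are high. The counts of higher and of separated genes and the median are therefore set in part by the filter. The group was taken by symbol and chosen after the values were seen. Its median log2 fold change was 1.90, and 1.67 unwounded, where 19 were higher, beside 8.21% of all genes. The linker histone H1-2 was at 146 ± 12.6 normalized counts in WT HDW and 1490.0 ± 263 in GCN2KO HDW (3.35 ± 0.12). The core histones H2BC5 (2.73 ± 0.10), H2AC6 (1.79 ± 0.06), H2BC12 (1.72 ± 0.08) and H4C9 (1.63 ± 0.07) were higher too. The other 3 were H1-10 (0.18), H2AC25 (0.23) and H4C15 (0.84). Transcripts of canonical histone genes mostly lack a poly(A) tail, and the genes are near-identical copies, so single values are uncertain.

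Chromosome 5 stood apart from the other chromosomes. Of its 721 tested genes 83 were higher (11.5%) and 35 lower (4.85%), beside 7.1% and 7.83% of all genes. The median log2 fold change was 0.36 after HDW and 0.35 unwounded, against -0.10 to 0.05 after HDW on the others. The leucyl-tRNA synthetase LARS1 (0.99), TARS1 (0.71), RARS1 (0.67) and the autophagy receptor SQSTM1 (0.84) lie on this chromosome and HARS1 (-0.06) does too. Copy number was not measured, and the part of this shift in any single gene was not tested.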
